A study of Mus musculus with 16 samples.

Results

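The transcripts examined were 39 named genes of hepatic stellate cells and the extracellular matrix, of which 37 were among the 12618 genes of the deposited table of normalized counts. They were taken by gene symbol. Lox, a lysyl oxidase, and Timp1, an inhibitor of matrix metalloproteinases, were named as well and were not analysed here. Livers came from mice on a Western diet for 8 weeks, with 8 libraries labelled Ctrl (control CRISPR) and 8 labelled CYP7A1 (Cyp7a1 CRISPR). CRISPR edits genomes at chosen sites. Cyp7a1, its target by the label, codes for the cholesterol 7-alpha-hydroxylase that starts the classical route to bile acids. Both groups received the diet, so no library shows these genes without it. The sources used here give no strain, sex or age, and do not say how or in which cells the editing was done. Libraries are named below by group and by the number in their label. No label states that the libraries come from different animals, and p-values therefore rest on the spread between libraries.

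Hepatic stellate cells lie between the sinusoidal endothelium and the hepatocytes. At rest they store vitamin A as retinyl esters, which the enzyme encoded by Lrat makes. After liver injury they can become contractile, collagen-secreting myofibroblasts under signals such as transforming growth factor beta and platelet-derived growth factor, and they are the main source of scar collagen in many liver diseases. Collagen is secreted as procollagen, trimmed, cross-linked by lysyl oxidases and degraded by matrix metalloproteinases, which the TIMP proteins inhibit. Portal fibroblasts, smooth muscle, endothelium and macrophages also express some of these genes.

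Recovered reads, the whole read numbers behind the normalized counts, totalled 13.8 to 27.4 M per library (M, mega), and the member with the fewest had 3 reads in its lowest library. Cyp7a1 itself was no lower in Cyp7a1-labelled livers. It had 3587 ± 1252 normalized counts in controls and 4702 ± 1126 in Cyp7a1-labelled livers (SD, n = 8 each), a difference that did not pass by limma (adjusted p = 0.227) or by an exact permutation test (two-sided, p = 0.0716). Editing itself cannot be read from a count per gene, and every direction below rests on the labels. The summed level of 10 hepatocyte markers, most of it from Alb (albumin), was 1.75 to 2.53 M normalized counts in controls and 1.83 to 2.52 M in Cyp7a1-labelled livers. Genes expressed by stellate cells, among them Lrat, Reln, Des, Pdgfrb, Rgs5, Colec11 and Hand2, were detected in every library, and no member was at 0 in any library. Gfap, another stellate cell gene of the lists, was not analysed here.

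None of the 37 stellate cell and matrix members passed the test for a difference between the groups. Of 37 members, 0 were higher and 0 lower (limma on log2(value + 1), adjusted p under 0.05 over 12617 genes), where 6.12% of all genes passed in either direction, 3.07% higher and 3.05% lower. The same counts, 0 and 0, came from edgeR and from DESeq2 on recovered reads. At an unadjusted p under 0.05, 1 member passed, against 20.5% of all genes. Control and Cyp7a1-labelled livers overlapped for all 37 members, and the groups did not overlap for 1.04% of all genes. In bulk tissue, fewer cells of a type and less RNA per cell cannot be told apart.

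Fold changes, on the log2(value + 1) scale, are positive where Cyp7a1-labelled livers were higher, and their 95% intervals bound the size of a difference that could have gone undetected. The interval lay within 1.5-fold in both directions for 25 of 37 members, a smaller share than the 85.6% of all genes, and within 2-fold for 35. The 2 members with wider intervals were Col1a1 (-0.94 to 1.08) and Thbs1 (-0.18 to 1.87). The median log2 fold change of the members was 0.06, against 0.0034 over all genes, and 28 of 37 were above 0, against 50.9% of all genes. That median was -0.04 without control 20 and -0.11 without control 20 and Cyp7a1 24 together, a pair chosen after seeing the data. The count above 0 then came to 12 and 8. Over 25 other settings the sign stayed the same for 9 members and changed in some setting for 28.

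**Figure D1:**
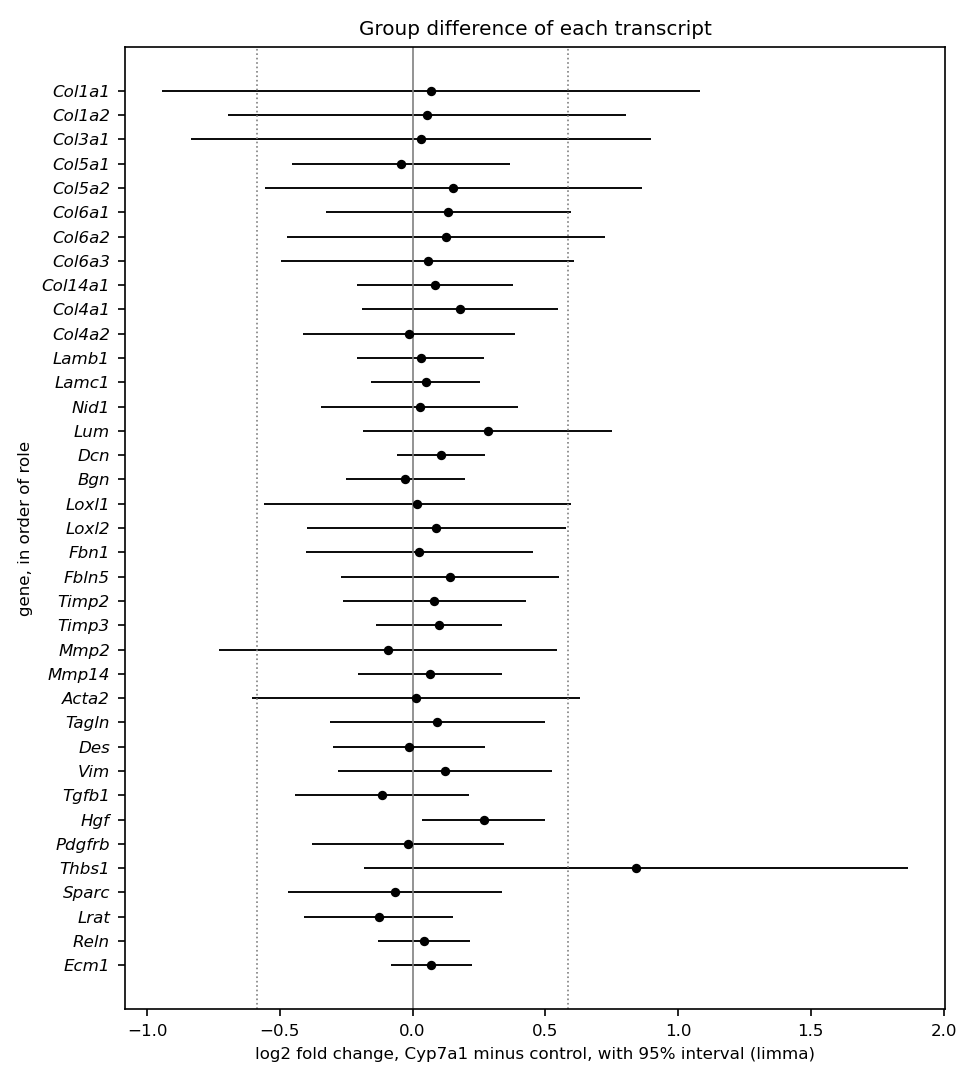
Log2 fold change of each of 37 members (rows, in order of role), positive where Cyp7a1-labelled livers were higher, on the log2(value + 1) scale, with its 95% interval from limma (horizontal bars, 8 libraries a group). Dotted lines mark 1.5-fold in each direction; the interval of 25 members lies between them, those of Col1a1 and Thbs1 reach furthest, and the interval of Hgf alone does not cross 0.

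The 5 fibrillar collagen genes varied widely between livers of the same group and had similar averages in both. Col3a1, which encodes the chains of collagen III (chromosome 1, 45311538 to 45349706 on mm10), spanned 464 to 4059 normalized counts in controls, with a median of 1614. In Cyp7a1-labelled livers it spanned 852 to 3767, with a median of 1762. The groups overlapped over most of their range, and the log2 fold change was 0.03 ± 0.41 (SE; limma adjusted p = 0.977). Col1a1, for the main chain of collagen I (chromosome 11, 94936224 to 94953042), spanned 155 to 2678 in controls, with a median of 889, and 466 to 2075 in Cyp7a1-labelled livers, with a median of 998. Its lowest value was in control 20 and its highest in control 13, so the control livers spanned the whole range of the other group. Its log2 fold change was 0.07 ± 0.48 (SE; limma adjusted p = 0.959).

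Col1a2, the partner chain of collagen I, lay at 258 to 2048 normalized counts in controls (median 857) and 514 to 1682 in Cyp7a1-labelled livers (median 910). Col5a2, a chain of the fibril-regulating collagen V, lay at 48.1 to 265 (median 109) and 72.3 to 264 (median 144). Both groups overlapped for each gene. The log2 fold changes of the 5 genes were between -0.04 and 0.15, and the smallest limma adjusted p among them was 0.861.

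**Figure D2:**
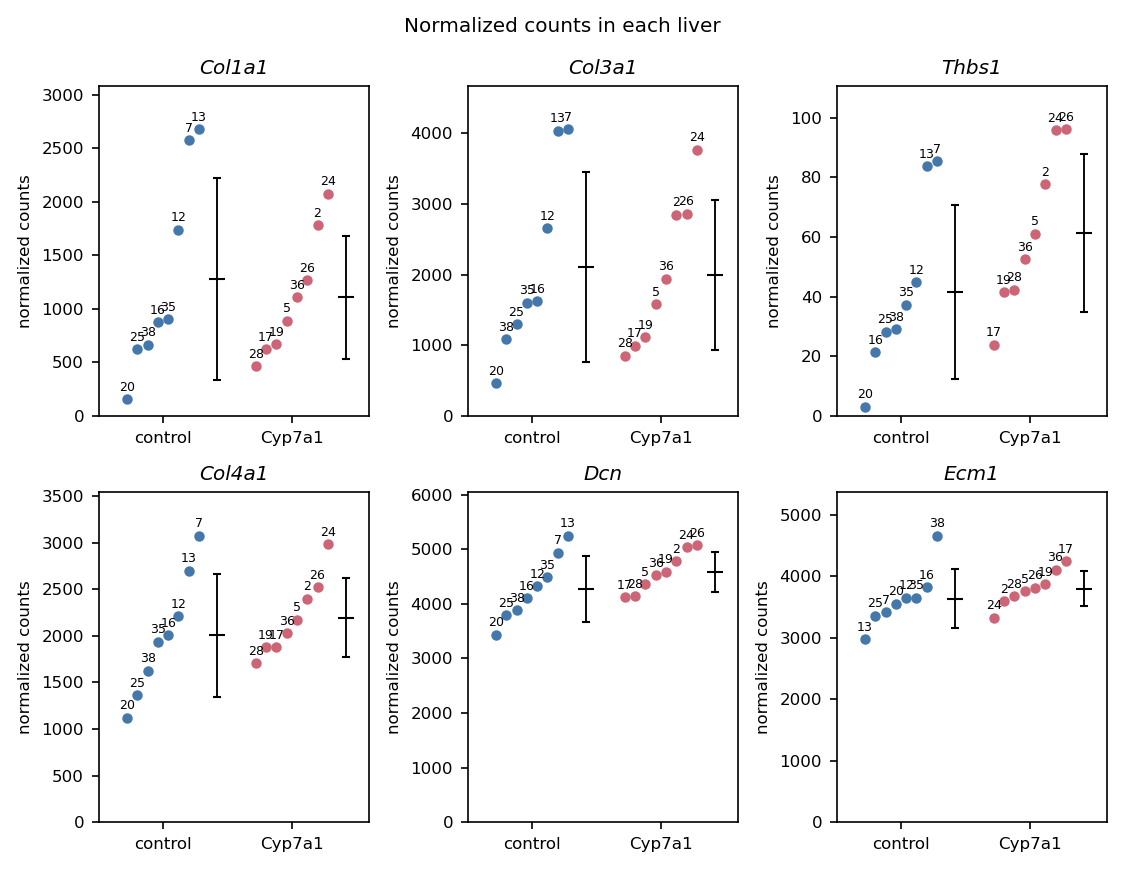
Normalized counts (vertical axes, each from 0) of 6 members in 8 control (blue) and 8 Cyp7a1-labelled (red) libraries, with the label number of each library; bars show the mean and SD. Col1a1, Col3a1 and Thbs1 are lowest in control 20 and highest or near highest in control 7, control 13 and Cyp7a1 24, while Dcn and Ecm1 vary little.

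Collagen VI forms beaded microfibrils around cells and collagen XIV binds to the surface of fibrils. Col6a1 (chromosome 10, 76708792 to 76726168) spanned 235 to 772 normalized counts in controls (median 488) and 356 to 658 in Cyp7a1-labelled livers (median 520). Col14a1 spanned 1250 to 2433 (median 1854) and 1488 to 2548 (median 1925). The groups overlapped for both genes, and the 4 genes of this role had log2 fold changes of 0.06 to 0.13, with a smallest limma adjusted p of 0.797.

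Collagen IV chains, laminins and nidogen build basement membranes, which in liver sit mostly around vessels and ducts. Col4a1 (chromosome 8, 11198423 to 11312826, minus strand) spanned 1124 to 3075 normalized counts in controls (median 1972) and 1704 to 2981 in Cyp7a1-labelled livers (median 2101). Col4a2, its head-to-head neighbour (11312805 to 11449287, plus strand), spanned 862 to 2017 (median 1305) and 937 to 1869 (median 1290). Both pairs of ranges overlapped. The 2 gene models share 22 exon bases, and the sources used here do not say whether counting used strand. The 5 genes of this role had log2 fold changes of -0.01 to 0.18 and a smallest limma adjusted p of 0.627. Lamb1 and Lamc1, laminin chains, had the narrowest ranges among them, at 1.68-fold and 1.602-fold between the highest and lowest control.

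Among the small leucine-rich proteoglycans, which bind collagen fibrils, Bgn (biglycan) and Dcn (decorin) were abundant. Per length, Bgn stood at 765 and Dcn at 758 normalized counts per kb of exon (mean of 16 libraries), against 209 for Col3a1 and 182 for Col1a1. Bgn spanned 3190 to 5714 normalized counts in controls (median 4794) and 3748 to 5726 in Cyp7a1-labelled livers (median 4626). Dcn spanned 3433 to 5250 (median 4216) and 4119 to 5070 (median 4554). Both genes overlapped between the groups and spanned less than 2-fold within each. Dcn had a log2 fold change of 0.11 ± 0.08 (SE; limma adjusted p = 0.487). Lum (lumican), the third member of this role, varied more, 3.49-fold between the highest and lowest control.

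The genes of cross-linking and elastic fibres were expressed at lower levels. Fbln5 (fibulin-5), an organiser of elastic fibres, spanned 122 to 382 normalized counts in controls (median 263) and 211 to 351 in Cyp7a1-labelled livers (median 256). Loxl1, a lysyl oxidase-like enzyme of elastin, spanned 37.7 to 202 (median 96.2) and 62.6 to 159 (median 87.1). Ranges overlapped for both genes. The 4 genes measured here, with Loxl2 and the microfibril gene Fbn1, had log2 fold changes of 0.02 to 0.14 and a smallest limma adjusted p of 0.755.

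Among matrix proteases and their inhibitors, Timp3, an inhibitor that binds to the matrix, spanned 896 to 1657 normalized counts in controls (median 1490) and 1143 to 1671 in Cyp7a1-labelled livers (median 1505). Timp2, a secreted inhibitor, spanned 348 to 835 (median 649) and 491 to 882 (median 637). Both overlapped between the groups. Timp3 shares 21.3% of its exon bases with Syn3 on the opposite strand, and 14 of the 37 members share some exon bases with another annotated gene. Mmp2, a gelatinase, varied most in this role, 5.59-fold between the highest and lowest control, while Mmp14, the membrane protease that activates it, varied 1.95-fold. The 4 genes had log2 fold changes of -0.09 to 0.099 and a smallest limma adjusted p of 0.690.

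Genes of contraction and of the cytoskeleton mark activated stellate cells and, in part, smooth muscle. Vim (vimentin), the intermediate filament of mesenchymal cells, spanned 418 to 1111 normalized counts in controls (median 682) and 526 to 1211 in Cyp7a1-labelled livers (median 724). Tagln (transgelin), an actin-binding protein, spanned 93.1 to 218 (median 145) and 107 to 234 (median 159). The groups overlapped, and the 4 genes had log2 fold changes of -0.01 to 0.12 with a smallest limma adjusted p of 0.788. Acta2, the smooth muscle actin used as the marker of myofibroblasts, was named after its values were seen, because it was the member with the largest SD in Cyp7a1-labelled livers. It was low, at 36.6 to 82.2 in controls and 16.6 to 103 in Cyp7a1-labelled livers, with the lowest value in Cyp7a1 17 and the highest in Cyp7a1 36. Of the exon bases of Tagln, 62.4% are shared with a gene model on the opposite strand, so its reads cannot be assigned to one gene with certainty.

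Signals and matricellular proteins included the only member with an unadjusted p under 0.05. Hgf, the hepatocyte growth factor that stellate cells secrete, spanned 53.8 to 71.5 normalized counts in controls (median 62.9) and 58.6 to 103 in Cyp7a1-labelled livers (median 72.6). The 4 highest values, in Cyp7a1 26, 28, 24 and 17, lay above every control, while the other 4 overlapped the controls. The log2 fold change was 0.27 ± 0.11 (SE; 95% interval 0.04 to 0.50, limma adjusted p = 0.167), and the call was not reached in any of the other settings tried. At 35 to 133 reads per library, counting error alone gave Hgf an SD of 0.18 on the log2 scale, close to its control SD of 0.17.

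Thbs1 (thrombospondin-1), which can activate latent transforming growth factor beta, had the highest log2 fold change of the members and one of the lowest levels. It spanned 3.14 to 85.3 normalized counts in controls (median 33.2) and 23.9 to 96.2 in Cyp7a1-labelled livers (median 56.8). Control 20, with 3 reads, lay far under the other controls, and the groups overlapped. The log2 fold change was 0.84 ± 0.49 (SE; limma adjusted p = 0.357). Sparc (osteonectin), a collagen-binding glycoprotein, spanned 1433 to 3345 in controls (median 2183) and 1484 to 3643 in Cyp7a1-labelled livers (median 2335). Pdgfrb, the platelet-derived growth factor receptor of stellate cells, spanned 335 to 710 (median 496) and 349 to 638 (median 516). Ranges overlapped for both, as they did for Tgfb1, whose log2 fold change was -0.12 (limma adjusted p = 0.744).

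The role of resting stellate cell genes held 3 members, Lrat, Ecm1 and Reln. Lrat (chromosome 3, 82892579 to 82903973) spanned 310 to 569 normalized counts in controls (median 428) and 292 to 520 in Cyp7a1-labelled livers (median 396). Its log2 fold change of -0.13 ± 0.13 was the lowest of the 37 members (SE; limma adjusted p = 0.652), and the groups overlapped. Ecm1, an extracellular matrix protein, had the highest level per length of all members, 1475 normalized counts per kb of exon. It spanned 2980 to 4661 normalized counts in controls (median 3602) and 3326 to 4250 in Cyp7a1-labelled livers (median 3784), again with overlap. Reln (reelin), a secreted glycoprotein, ranged over 1.54-fold in controls and 1.36-fold in Cyp7a1-labelled livers.

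The promoter letters of a widely varying collagen gene and of 2 narrowly varying stellate genes are shown to place that contrast beside the sequence. They are the 250 bases before the RefSeq start site, read 5′ to 3′ on the strand of the gene, from GRCm38.p6. Capitals mark the motif TATAAA of the core promoter, the GC box motif GGGCGG and the AP-1 motif TGANTCA. These and the motif CCAAT were searched on both strands, and none of the 4 overlaps another in the 3 windows.
Col3a1, chr1:45311288-45311537, plus strand: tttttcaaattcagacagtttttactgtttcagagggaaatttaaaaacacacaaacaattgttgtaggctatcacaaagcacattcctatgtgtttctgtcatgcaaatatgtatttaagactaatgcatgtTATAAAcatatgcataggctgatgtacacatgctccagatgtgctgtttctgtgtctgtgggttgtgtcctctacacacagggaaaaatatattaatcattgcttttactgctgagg
Reln, chr5:22344706-22344955, minus strand: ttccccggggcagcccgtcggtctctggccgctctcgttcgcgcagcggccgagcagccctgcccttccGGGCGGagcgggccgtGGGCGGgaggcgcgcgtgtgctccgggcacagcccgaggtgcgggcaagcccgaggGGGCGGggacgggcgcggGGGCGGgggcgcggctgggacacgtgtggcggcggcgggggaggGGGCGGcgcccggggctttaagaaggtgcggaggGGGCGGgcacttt
Ecm1, chr3:95739570-95739819, minus strand: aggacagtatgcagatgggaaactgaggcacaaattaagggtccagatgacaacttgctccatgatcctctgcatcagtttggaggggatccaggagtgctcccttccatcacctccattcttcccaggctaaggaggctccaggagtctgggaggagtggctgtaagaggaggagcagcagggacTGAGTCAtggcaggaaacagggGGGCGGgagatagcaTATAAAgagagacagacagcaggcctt
Reln held 6 copies of GGGCGG, Ecm1 held 1 copy each of 3 of the motifs with TATAAA 27 bases before its start, and Col3a1 held TATAAA 117 bases before its start. Of the members, 25 had a RefSeq promoter in the table used. GGGCGG was in a promoter of 17 of them (68%, against 35.4% of the 27025 genes with a promoter in the table and 32.7% of all promoters). CCAAT was in 10 (40%, against 37.5% of genes and 33.8% of promoters), TATAAA in 3 (12%, against 14.3% and 12.4%) and TGANTCA in 2 (8%, against 7.82% and 6.75%). The comparison genes were not limited to those with normalized counts here, for which the shares were not computed. A match is a run of letters and no evidence of binding.

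**Figure D3:**
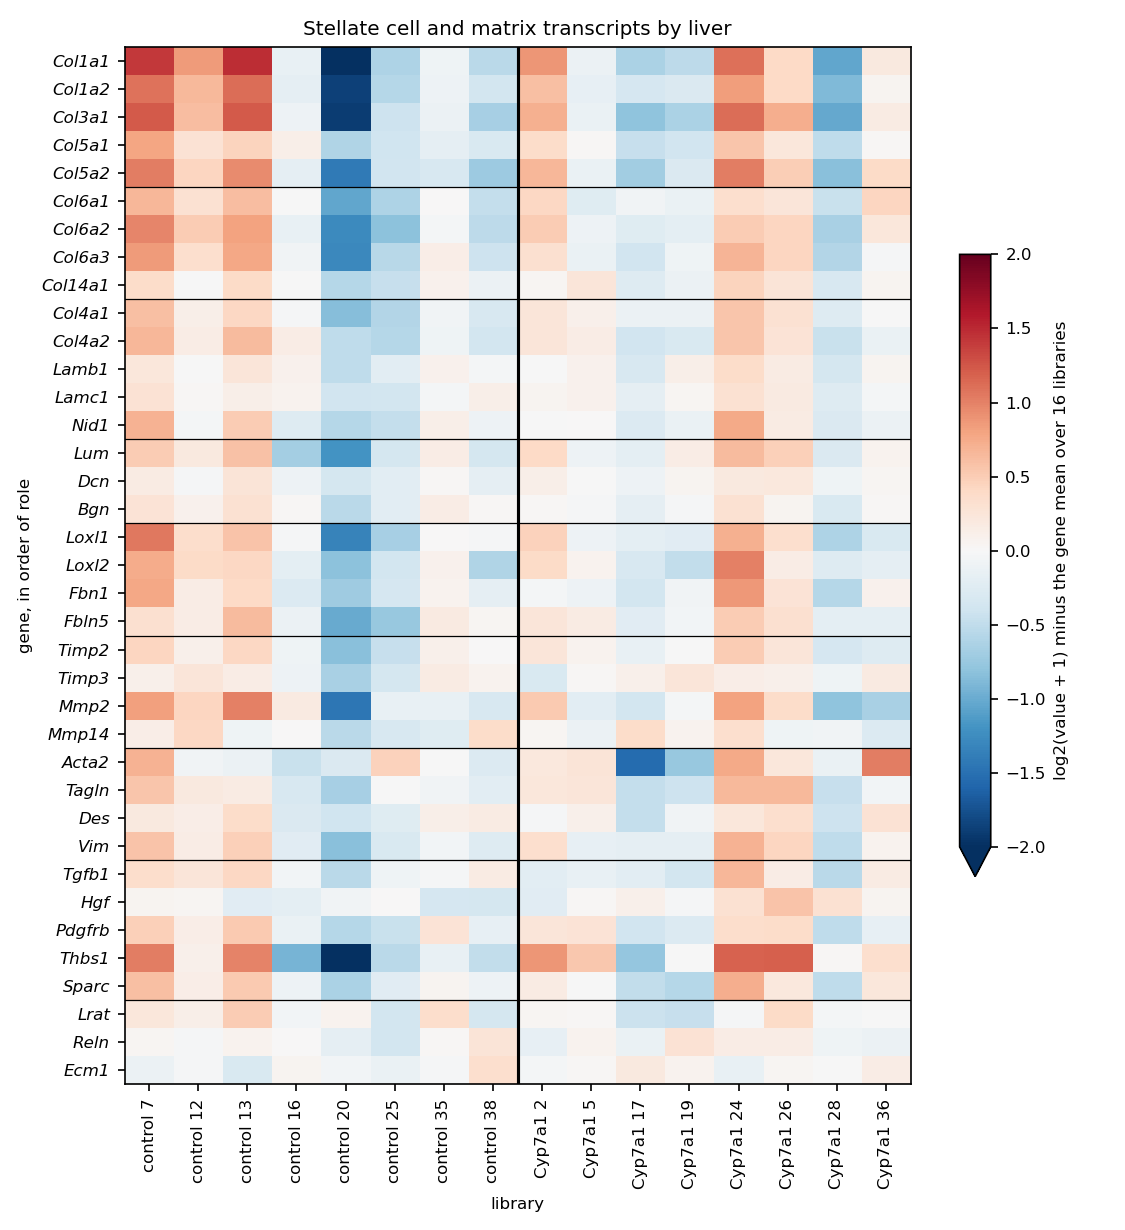
Log2(value + 1) of 37 members (rows, grouped by role) in 16 libraries (columns, 8 control left of the thick line, 8 Cyp7a1-labelled right of it), as the difference from the mean of the gene over all libraries; red is higher and blue lower, and values beyond the colour scale take its end colour. Columns control 7, control 13 and Cyp7a1 24 are red and column control 20 is blue over most collagen and matrix rows, while Hgf, Reln and Ecm1 stay pale.

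Most matrix genes varied widely between livers of the same group. The median SD of log2(value + 1) was 0.44 over the members in controls and 0.36 in Cyp7a1-labelled livers, against 0.174 and 0.163 over all genes. Counting error accounted for a median SD of 0.07 and 0.06 of these. In controls, 36 of 37 members had an SD above the all-gene median and 20 were among the 10% of genes that varied most, and in Cyp7a1-labelled livers these counts were 35 and 13. The highest liver exceeded the lowest more than 2-fold for 24 members in controls, against 17.6% of all genes, and for 18 in Cyp7a1-labelled livers, against 16.9%. Without control 20 these were 19 members and 13.3% of genes in controls, and without Cyp7a1 24 they were 11 members and 12.3% of genes in the other group. By the same median some lists used below varied about as widely or more, controls first. Other matrix proteins had 0.42 and 0.34, and portal fibroblast and mesothelial genes 0.68 and 0.63. Recruited macrophage genes had 0.78 and 0.44, and cholangiocyte genes 0.64 and 0.71. Lower medians were those of other stellate cell genes (0.19 and 0.25) and sinusoidal endothelial genes (0.16 and 0.19), among other lists. No test was made of the members' spread against that of other genes.

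The spread differed by role. Fibrillar collagens had the widest by their median SD, 0.99 in controls and 0.66 in Cyp7a1-labelled livers, with single genes from 0.47 to 1.34 and from 0.399 to 0.79. Resting stellate genes had the narrowest by the same median, with values of 0.18 and 0.16 and single genes from 0.18 to 0.31 and from 0.11 to 0.27. Some genes of other roles, such as Hgf (0.17) and Dcn (0.20), had a lower SD in controls than Lrat (0.31). Col1a1 reached 17.3-fold between the highest and lowest control, Col3a1 8.74-fold and Col1a2 7.93-fold. The same genes reached 4.45-fold, 4.42-fold and 3.28-fold in Cyp7a1-labelled livers. Thbs1 ranged over 27.2-fold in controls, with a 95% counting interval of 9.06 to 134 because its lowest library had 3 reads, and over 4.02-fold in Cyp7a1-labelled livers. Acta2 went the other way, with 2.25-fold in controls and 6.22-fold in Cyp7a1-labelled livers.

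The SD was lower in Cyp7a1-labelled livers than in controls for 31 of 37 members, against 54.9% of all genes, and the median ratio of the SDs was 0.76 over the members and 0.95 over all genes. The test of the spread, limma on the absolute deviations from the group mean, called 0 members and 0% of all genes after adjustment. On simulated data with these group sizes the same test found none of the planted changes of spread after adjustment, so its counts of 0 say little. At an unadjusted p under 0.05 it called 0 members as well, against 7.66% of all genes. The smallest unadjusted p among the members was 0.0572, for Lum. Without control 20 the SD was lower for 24 members, against 49.2% of all genes. Without Cyp7a1 24 these were 33 members and 61.6%, and without both livers 30 members and 56.3%.

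**Figure D4:**
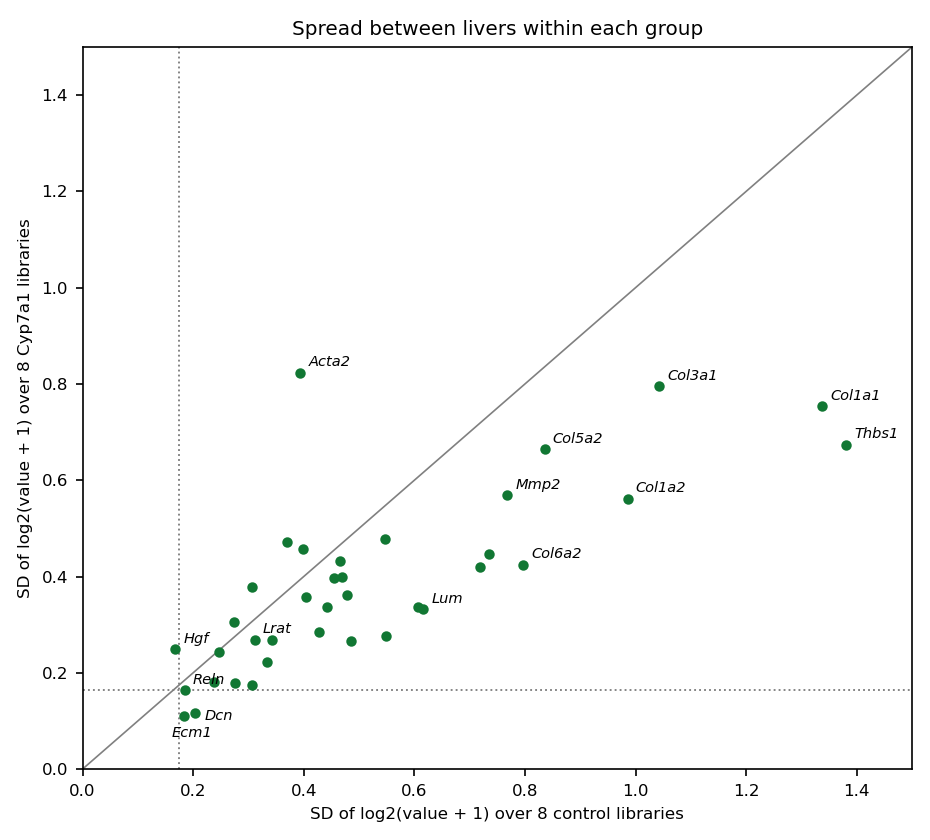
SD of log2(value + 1) between libraries for each of 37 members, 8 control libraries on the horizontal axis and 8 Cyp7a1-labelled libraries on the vertical axis; dotted lines mark the medians of all genes, 0.174 and 0.163, and the diagonal marks equal SDs. The collagens Col1a1, Col1a2 and Col3a1 lie far right, 31 points lie below the diagonal, and Acta2 stands above it.

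A few livers, in both groups, held the extreme values of most members. Control 7, control 13 and Cyp7a1 24 held 29, 28 and 28 members among their 3 highest libraries, where they held 19.9%, 19.4% and 26.5% of all genes. They were together the 3 highest libraries for 22 members, and the highest library was one of them for 29. Control 20 was the lowest library for 30 members, against 12.8% of all genes. The median member stood 0.57 above its own mean on the log2 scale in control 7, 0.45 in control 13 and 0.55 in Cyp7a1 24, and at -0.65 in control 20, -0.37 in control 25 and -0.35 in Cyp7a1 28. Most of the spread remained when control 20, control 7, control 13 or Cyp7a1 24 was left out alone. The members' median SD in controls was 0.40 without control 20, 0.38 without control 7 and 0.42 without control 13, and in Cyp7a1-labelled livers it was 0.30 without Cyp7a1 24. Control 20 and Cyp7a1 24 stood apart over all genes too, with the highest value of 12.1% and 13.9% of genes and the lowest array weights, limma's estimate of the relative precision of a library (0.503 and 0.510). Control 20 had 21.2 M recovered reads, near the control mean of 21.02.

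Summed markers of some other cell types moved along with these livers, and the sums of others did not. The summed level of 9 recruited macrophage genes was 7104 normalized counts in control 7, 6743 in control 13 and 6863 in Cyp7a1 24, and 2199 in control 20, the lowest of all libraries. The range was 2199 to 7104 in controls and 2752 to 6863 in Cyp7a1-labelled livers. Cholangiocyte genes, 5 of them, summed to 3691, 2993 and 3912 in the same 3 livers and to 937 in control 20, which was the lowest. Cyp7a1 26 (3366) and Cyp7a1 2 (3248) also lay above control 13. Most of the cholangiocyte sum was Spp1 (osteopontin), a secreted phosphoprotein that is also in the recruited macrophage list. It was at 3362, 2604 and 3477 in control 7, control 13 and Cyp7a1 24, and at 700 in control 20. The other 4 cholangiocyte genes summed to 329, 389 and 435, and to 237 in control 20, while control 25 was lowest with 164 and control 12 had 372. Without Spp1 the recruited macrophage sum was 3741, 4139 and 3386 in the 3 livers and 1499 in control 20, still the lowest. Portal fibroblast and mesothelial genes, 7 in the table, summed to 607, 566 and 582 in the same livers and to 188 in control 20. Cyp7a1 2, with 590, lay above control 13 and Cyp7a1 24. The hepatocyte sum ran the opposite way, with the lowest value of all, 1.75 M, in control 13 and the highest, 2.53 M, in control 20. Most of that sum was Alb. Kupffer cell genes followed less closely, with 24485 in Cyp7a1 24 against 6496 to 13499 in the other libraries. The sum of sinusoidal endothelial genes did not follow, with 15119, 14539 and 16029 in the 3 livers and 15021 in control 20. Single genes of that list differed. Lyve1 was at 886, 889 and 1047 in the 3 livers and 287 in control 20. Dnase1l3 was at 1656, 1651 and 1582, and at 2227 in control 20. Smooth muscle genes summed to 816, 659 and 647 in the same 3 livers and to 764 in control 20. A large part of that sum was the tropomyosin gene Tpm2, at 341, 258 and 196 in the 3 livers and 438 in control 20. The sum therefore does not show whether the other smooth muscle genes followed. The 17 other stellate cell genes summed to 11322, 12493 and 11130, and to 9988 in control 20. Their sum was 9846 in control 12 and highest, 14068, in Cyp7a1 36. The largest single gene in it was Steap4, with means of 3455 in controls and 3117 in Cyp7a1-labelled livers. The sum does not show whether single genes of that list followed. Among the list genes analysed, none was at 0 in any library. Only part of some lists was analysed, such as 2 of 7 lymphocyte and 4 of 7 smooth muscle genes. No gene of the deposited table had a mean under 13.3 normalized counts, so genes detected less may be missing from it. The part of these cell types in the spread of the members was not tested.

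The livers ranked alike for different matrix genes. Within controls, log2(value + 1) of Col1a1 and Col1a2 had a Pearson r of 0.998 and a Spearman rho of 1 over 8 livers (exact permutation, adjusted p = 0.000174 and 0.000347). Within Cyp7a1-labelled livers r was 0.985 and rho 1, with the same adjusted p-values. Adjustment was over 14 values of each kind, 7 pairs in 2 groups, and all p-values here are two-sided. The 2 chains are made together for one collagen I molecule.

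Col1a1 and Col3a1 had r = 0.992 and rho = 0.929 in controls (exact permutation, adjusted p = 0.000397 and 0.00347) and r = 0.980 and rho = 0.976 in Cyp7a1-labelled livers (0.000278 and 0.00139). Col1a1 and the basement membrane gene Col4a1 had r = 0.95 and rho = 0.952 in controls (exact permutation, adjusted p = 0.000278 and 0.00228) and r = 0.932 and rho = 0.929 in the other group (0.00139 and 0.00347). Without the 2 livers farthest from the median of Col1a1, r was 0.939 in controls, and in Cyp7a1-labelled livers it was 0.853 and no longer passed (exact permutation, adjusted p = 0.0506). Leaving out 2 livers kept the other collagen pairs above 0.96 in both groups. In controls those left out were control 13 and control 20, and control 7, also among the highest, stayed in. Libraries share their RNA and their normalization across genes, and the part of this in such relations was not tested.

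Col1a1 and Vim had r = 0.980 and rho = 0.976 in controls (exact permutation, adjusted p = 0.000278 and 0.00139) and r = 0.951 and rho = 0.952 in Cyp7a1-labelled livers (0.000868 and 0.00228). Without 2 livers r was 0.970 and 0.881 (exact permutation, adjusted p = 0.00648 and 0.0486). Dcn and Lum, nearby proteoglycan genes on chromosome 10, had r = 0.926 and rho = 0.905 in controls (exact permutation, adjusted p = 0.00142 and 0.00639) and r = 0.978 and rho = 0.952 in the other group (0.000397 and 0.00228). Without 2 livers these were 0.836 and 0.970 (exact permutation, adjusted p = 0.0497 and 0.00778).

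Pairs with contraction genes and with the retinoid storage gene passed only in part. Acta2 and Tagln had r = 0.734 and rho = 0.786 in controls (exact permutation, adjusted p = 0.0478 and 0.0326), and the relation did not hold without 2 livers (r = 0.674, adjusted p = 0.162). In Cyp7a1-labelled livers they had r = 0.657 and rho = 0.667 (exact permutation, adjusted p = 0.0872 and 0.0895), and r = 0.289 without 2 livers. Col1a1 and Lrat had r = 0.480 in controls and 0.506 in Cyp7a1-labelled livers, neither past the threshold (exact permutation, adjusted p = 0.232 and 0.220). Their rho was 0.786 and 0.619 (exact permutation, adjusted p = 0.0326 and 0.115), and r was 0.678 and 0.770 without 2 livers (0.169 and 0.0902). Whether these relations differ from those among the collagens was not tested.

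Other genes of the same pathways, from lists, gave few calls (limma, adjusted p under 0.05 over all genes, which 6.12% of all genes passed). Of 21 genes of transforming growth factor beta signalling, 0 were higher and 1 lower, Cyr61, a matricellular protein, at 158 to 310 normalized counts in controls and 65.9 to 174 in Cyp7a1-labelled livers. The groups overlapped, and the log2 fold change was -0.68 ± 0.19 (SE; limma adjusted p = 0.0451). It did not pass by edgeR (adjusted p = 0.0524), with equal totals (limma adjusted p = 0.0716) or when most single livers were left out in turn, where the limma adjusted p reached 0.0861. Of 18 genes of collagen maturation, 0 were higher and 1 lower. This was P4hb, a subunit of prolyl 4-hydroxylase and also protein disulfide isomerase of all secretory cells, at 39457 to 46778 in controls and 32877 to 37319 in Cyp7a1-labelled livers. All control livers lay above all others, and the log2 fold change was -0.24 ± 0.06 (SE; adjusted p = 0.0205). The collagen-specific chaperone Serpinh1 and the hydroxylase subunit P4ha1 did not pass, with log2 fold changes of -0.18 and 0.01.

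Among 32 other matrix proteins, 0 were higher and 1 lower, Fn1 (fibronectin), which hepatocytes also secrete into plasma. It lay at 50196 to 76214 normalized counts in controls and 42937 to 55472 in Cyp7a1-labelled livers, with overlap, and its log2 fold change was -0.34 ± 0.10 (SE; limma adjusted p = 0.0495). The call was lost without control 20 and Cyp7a1 24 (adjusted p = 0.118), with array weights (0.0516) and when most single livers were left out in turn, where the adjusted p ran from 0.0295 to 0.0926. Col27a1 was called only by DESeq2, with a limma log2 fold change of -0.61 and an adjusted p of 0.0579. Of 11 other matrix proteases and inhibitors, 0 were higher and 1 lower, Mmp15, a membrane-type metalloproteinase, at 1290 to 1748 in controls and 867 to 1370 in Cyp7a1-labelled livers. The groups overlapped narrowly, and the log2 fold change was -0.42 ± 0.09 (SE; limma adjusted p = 0.0128). Matrix receptors (15 genes) and platelet-derived and hepatocyte growth factor signalling (11 genes) had 0 calls by limma, edgeR or DESeq2, with 1 and 2 genes at an unadjusted p under 0.05. The smallest p-values in these were those of the integrin Itgb3 (log2 fold change 0.48, limma adjusted p = 0.147) and of Hgfac, the activating protease of Hgf (0.195, 0.156). Hgfac passed with array weights (limma adjusted p = 0.0369) and without control 20 and Cyp7a1 24 (0.0308).

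Of the retinoid genes, 1 of 10 was higher and 2 were lower, where 3.07% and 3.05% of all genes were, while Lrat did not pass. Rdh10, a retinol dehydrogenase, was called lower only by DESeq2, with a limma log2 fold change of -0.15 and an adjusted p of 0.0693. Cyp26a1, a retinoic acid hydroxylase induced by retinoic acid in hepatocytes, fell. It lay between 82.9 and 173 normalized counts in controls (median 109) and between 28.3 and 83.7 in Cyp7a1-labelled livers (median 50.8). Its groups overlapped only at Cyp7a1 28, and the log2 fold change was -1.13 ± 0.19 (SE; limma adjusted p = 0.00212). The call held in all the settings tried.

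Rara, the alpha retinoic acid receptor, lay at 809 to 1052 normalized counts in controls and 605 to 858 in Cyp7a1-labelled livers. Its groups overlapped only at Cyp7a1 2, with a log2 fold change of -0.35 ± 0.08 (SE; limma adjusted p = 0.0127). Ces1g, a carboxylesterase with retinyl ester hydrolase activity, lay at 4467 to 7554 and 6832 to 8843, with a log2 fold change of 0.35 ± 0.10 (SE; limma adjusted p = 0.0407). The call of Ces1g was lost when most single livers were left out in turn, where the adjusted p reached 0.0753. The list has members made by stellate cells and members made by hepatocytes, and its median log2 fold change was -0.06.

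**Figure D5:**
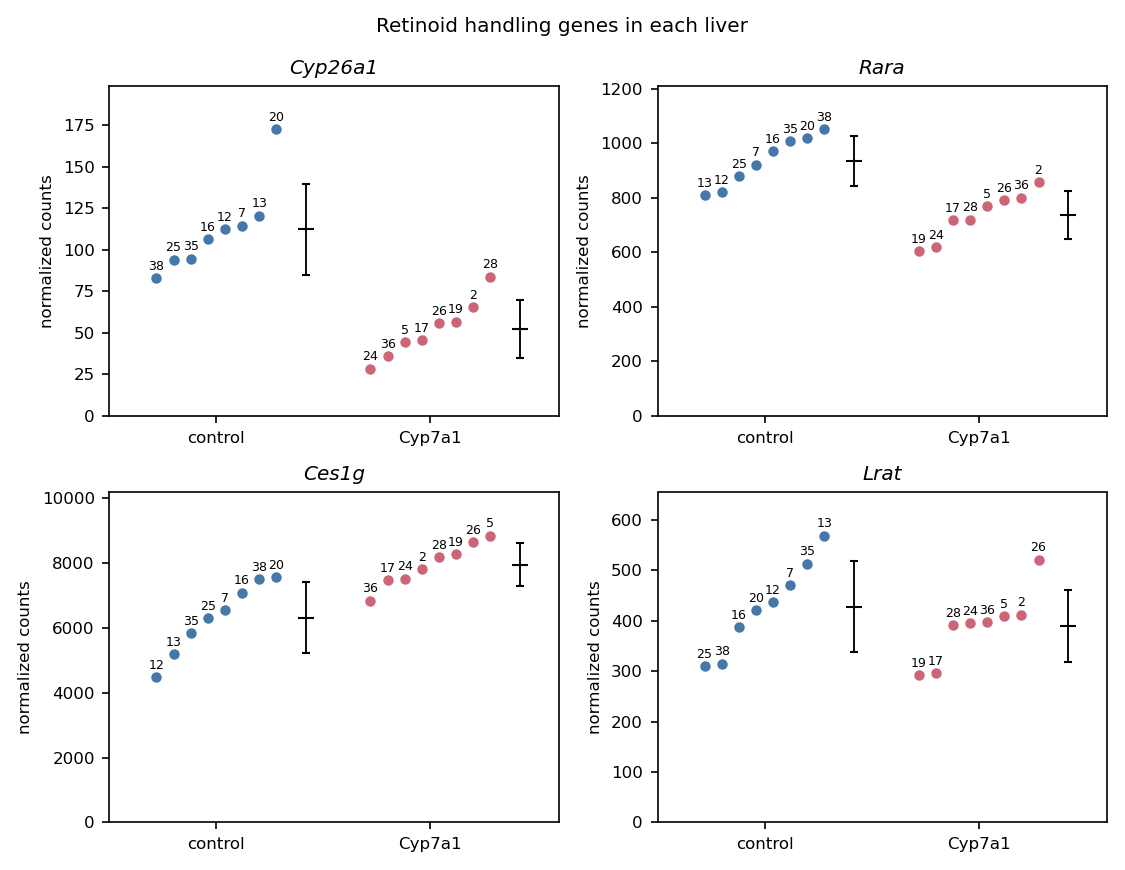
Normalized counts (vertical axes, each from 0) of 3 retinoid genes that passed the test and of the member Lrat, in 8 control (blue) and 8 Cyp7a1-labelled (red) libraries, with label numbers; bars show the mean and SD. The groups overlap at a single Cyp7a1-labelled liver for Cyp26a1 and for Rara, in part for Ces1g, and widely for Lrat.

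Marker lists of the cells that could carry these transcripts gave 1 call. Of 17 other stellate cell genes, 0 passed by limma, edgeR or DESeq2 and 0 had an unadjusted p under 0.05, with Abcc9 (log2 fold change 0.19, limma adjusted p = 0.247) and Pth1r (-0.19, 0.307) nearest. Their summed level was 9846 to 12716 normalized counts in controls and 9596 to 14068 in Cyp7a1-labelled livers. Smooth muscle genes had 0 of 4 higher and 1 lower, Tpm2, a tropomyosin, at 258 to 604 in controls and 169 to 301 in Cyp7a1-labelled livers (log2 fold change -0.98 ± 0.15 SE, limma adjusted p = 0.0011). Myh11 and Myl9, the smooth muscle myosin chains, did not pass and had log2 fold changes of 0.27 and 0.13. The lists of portal fibroblast, sinusoidal endothelial, Kupffer cell, recruited macrophage, cholangiocyte, lymphocyte and hepatocyte genes had 0 calls by limma, edgeR or DESeq2. Of these, 3 of 11 endothelial genes and no gene of the other lists had an unadjusted p under 0.05, against 20.5% of all genes. Without control 20 and Cyp7a1 24 the hepatocyte gene Serpina1a, for the protease inhibitor alpha-1-antitrypsin, passed (log2 fold change 0.30, limma adjusted p = 0.0371).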

How the data were processed

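Liver messenger RNA was measured in 16 libraries. The authors deposited 1 table of normalized counts, used here as a signal for each gene in each library. The submitters' processing notes list the build mm10 and, without role or order, DESeq2, R 3.6.3, featureCounts, STAR 2.7.11a and Trim Galore 0.6.10. The sources used here give neither the strand setting nor the rule that chose the table's genes.

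Values were whole multiples of the size of 1 read (0.769 to 1.54). After division, 99.94% to 99.99% of a library's values lay within 0.05 of a whole number of reads. Recovered reads were 21.02 ± 3.48 M per control and 23.4 ± 2.41 M per Cyp7a1-labelled library (SD, n = 8 each). Count tests on them, with edgeR 4.0.16 and DESeq2 1.42.0, are alternatives. On recovered reads edgeR called 381 genes higher and 379 lower.

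Means were compared with limma 3.58.1 (eBayes with trend, R 4.3.3) on log2(value + 1), a pseudocount of 1, two-sided. Calls are those with a Benjamini-Hochberg adjusted p under 0.05 over 12617 genes. The log2 scale understates changes of low genes. Spread was compared with limma on absolute deviations from the group mean. A minimum mean of 10 removed 0 genes. Ccne2, with text in 1 cell, was left out of the tests, and 19 symbols turned into dates were restored from gene IDs. No covariate was used, since the labels give no batch or pairing. Gene positions and exon lengths are from GENCODE M21, and promoters from RefSeq. Each test was tried on simulated data. The tests of means recovered most planted changes, and the spread test recovered none after adjustment.

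The members, the 16 lists, the pairs and the tests were chosen with earlier results of these data known. Members named with values by library are, per role, the 2 with the highest level per kb of exon and the 1 with the smallest p, and the 4 with the largest SD. From each list, the genes that passed are named, or the 1 or 2 with the smallest p. For 1 further list gene the result is not reported here, and it enters no list count. Alternatives were a pseudocount of 8, other filters, quantile normalization, equal totals, array weights, both count tests and each library left out in turn.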

Additional observations from a re-analysis of the deposited data

Results flagged for a closer look

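In groups of 8 libraries, values were compared on the log2(value + 1) scale. A library was singled out where its gap to the nearest other was a larger share of the group's range than Dixon's 95% critical value. This was looked for in 132 groups, the members and the named list genes in each group of livers, and chance gives about 1 in 20, or 6.6 groups. It was met in 5. Thbs1 had 3.138 normalized counts in control 20, far below the other controls, and Nid1 (nidogen-1), a basement membrane protein, had 1145 in Cyp7a1 24, far above the others of its group. Among other genes, Cd34, a marker of vascular and progenitor cells, had 20.92 in control 20, Lyz2, a lysozyme of myeloid cells, had 2528 in control 13, and Ighm, an immunoglobulin heavy chain, had 654.8 in control 7.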

How the results depend on the processing

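Over all 25 other settings, 0 members were called higher and 0 lower. The spread test, run in 20 other settings, called 0 members, but it also found no planted change on simulated data. Over all genes, leaving out single livers gave 230 to 399 genes higher, 245 to 414 lower and 0 to 2 with a different spread. The lowest counts were without Cyp7a1 28 (230 and 245), and without control 16 there were 256 genes lower. The sign of the log2 fold change was the same in every setting for 9 members and changed in some setting for 28. With array weights it was -0.22 for Col3a1, -0.25 for Col1a1, -0.18 for Col1a2, -0.056 for Col5a2, -0.020 for Col6a1, -0.15 for Loxl1, -0.0094 for Timp2 and -0.0014 for Vim. With edgeR it was -0.077 for Col3a1, -0.204 for Col1a1, -0.11 for Col1a2 and -0.077 for Loxl1, and with DESeq2 -0.077, -0.203, -0.11 and -0.074. Quantile normalization gave -0.010 for Loxl1. Without control 20 and Cyp7a1 24 it was -0.39 for Col3a1, -0.46 for Col1a1, -0.32 for Col1a2, -0.17 for Col5a2, -0.050 for Col14a1, -0.045 for Col6a1, -0.054 for Fbln5, -0.27 for Loxl1, -0.098 for Timp2, -0.080 for Vim, -0.083 for Tagln and -0.12 for the cholangiocyte gene Spp1. Leaving out single livers gave -0.11 to 0.014 for Bgn, -0.303 to 0.28 for Col1a1, -0.21 to 0.22 for Col1a2, -0.24 to 0.21 for Col3a1, -0.097 to 0.078 for Col4a2, -0.038 to 0.31 for Col5a2, -0.0051 to 0.24 for Col6a1, -0.17 to 0.17 for Loxl1, -0.101 to 0.054 for Pdgfrb, -0.17 to 0.014 for Sparc and -0.032 to 0.15 for Timp2. Without the 2 livers farthest from the median, r fell to 0.853 for Col1a1 and Col4a1 in Cyp7a1-labelled livers (exact permutation, adjusted p = 0.0506) and to 0.674 for Acta2 and Tagln in controls (0.162). The cause of these changes was not tested. The Cyp7a1 log2 fold change stayed between 0.33 and 0.53 when single livers were left out. No paired analysis was possible because the groups share no replicate numbers. Depth limits Thbs1, Acta2 and Hgf most, which had 3, 16 and 35 reads in their lowest library.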

Other observations

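Genes whose profile over the livers was nearest to that of Col1a1 were listed after the values had been seen, by the distance between group-centred, standardised log2 profiles over 16 libraries. The 10 nearest of all genes were Col1a2, Col3a1, Adamts2, Col6a3, Col6a2, Col5a2, Ehd2, S100a11, Gpnmb and Ssc5d, of which 5 were members. Of the 100 nearest, 17 were members. Adamts2, the protease that trims procollagen, spanned 136 to 482 normalized counts in controls and 215 to 412 in Cyp7a1-labelled livers. Gpnmb, a glycoprotein of lipid-laden macrophages, spanned 10.5 to 456 in controls, 43.6-fold, and 43.7 to 186 in Cyp7a1-labelled livers. Neither differed between the groups by the limma test (adjusted p = 0.864 and 0.923).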
